A study of Mus musculus with 16 samples.

Results

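The Hox genes described here are the 39 symbols of the deposited count tables that read Hox, a cluster letter from a to d and a paralogue number, out of 46882 genes listed. They are spread over 4 clusters, with 11 genes in the Hoxa cluster (chr6:52155590-52260880, minus strand), 10 in Hoxb (chr11:96194316-96368256), 9 in Hoxc (chr15:102921103-103036852) and 9 in Hoxd (chr2:74668310-74765142), on the GRCm38 build. All 39 symbols were found in the annotation, so no member was lost to naming. The members were chosen by symbol, not by their values.

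The libraries are bulk RNA from intestinal epithelium of RedMUC298trTg mice, aged 6 to 8 weeks, all of 1 strain with no further treatment named in the labels. The strain carries a mucin 2 reporter that marks goblet cells with the red protein mCherry. Cells alive after EDTA and collagenase digestion were sorted by mCherry, and each of the 4 groups had 4 libraries. DC.GC and DC.EC are the mCherry-positive goblet cells and the mCherry-negative cells, labelled colonocytes, of the distal colon. Si8.GC and Si8.EC are the mCherry-positive goblet cells and the mCherry-negative cells, labelled enterocytes, of section 8 of the small intestine. The negative sorts hold every unmarked live cell of the isolate, so they are not pure absorptive cells. Goblet RNA was purified on MinElute columns and the other RNA on Mini columns, so the goblet effect and the effect of the column cannot be told apart. Whether the 4 libraries of a group are 4 animals is not in the labels. The p-values below therefore weigh group differences against the spread among these libraries. Part of that spread may be technical, and the p-values may not hold for other mice.

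Hox genes code for homeodomain transcription factors that give cells their address along the head-to-tail axis. Within a cluster the genes lie in the order in which they are used along the body, with paralogue 1 at the anterior end and paralogue 13 at the posterior end. In the gut the posterior paralogues mark the hindgut, from which the colon forms, and the caudal-type factors Cdx1 and Cdx2 act upstream of many Hox genes. Polycomb complexes keep unused Hox genes silent, and Trithorax complexes keep used ones active.

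The promoters of 4 members are shown because they stand for the 2 sides of the regional switch described below: Hoxa13 and Hoxd13 were on in DC, and Hoxb4 and Hoxb8 were on in Si8. Each is the 250 bases before the RefSeq start (GRCm38.p6), 5′ to 3′ along the gene, with capitals for TTTATNG on either strand, the core that Cdx and posterior Hox proteins are known to prefer. The windows are chr6:52260881-52261130 on the minus strand, chr2:74667975-74668224 on the plus strand, chr11:96318017-96318266 on the plus strand and chr11:96281655-96281904 on the plus strand.
Hoxa13: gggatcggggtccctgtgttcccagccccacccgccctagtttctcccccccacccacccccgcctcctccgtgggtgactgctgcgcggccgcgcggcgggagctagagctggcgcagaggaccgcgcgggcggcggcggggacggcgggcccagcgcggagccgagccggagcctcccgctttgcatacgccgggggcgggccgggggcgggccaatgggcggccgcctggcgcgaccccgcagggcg
Hoxd13: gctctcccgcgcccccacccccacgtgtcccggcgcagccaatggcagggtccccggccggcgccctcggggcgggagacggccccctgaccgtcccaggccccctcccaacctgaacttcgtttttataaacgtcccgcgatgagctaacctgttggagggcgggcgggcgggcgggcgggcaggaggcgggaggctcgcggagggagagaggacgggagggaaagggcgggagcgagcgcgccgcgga
Hoxb4: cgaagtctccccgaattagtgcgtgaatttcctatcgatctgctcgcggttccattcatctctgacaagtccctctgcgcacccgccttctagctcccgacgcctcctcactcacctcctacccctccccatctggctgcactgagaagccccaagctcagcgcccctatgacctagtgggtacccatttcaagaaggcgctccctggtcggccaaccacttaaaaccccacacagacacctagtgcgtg
Hoxb8: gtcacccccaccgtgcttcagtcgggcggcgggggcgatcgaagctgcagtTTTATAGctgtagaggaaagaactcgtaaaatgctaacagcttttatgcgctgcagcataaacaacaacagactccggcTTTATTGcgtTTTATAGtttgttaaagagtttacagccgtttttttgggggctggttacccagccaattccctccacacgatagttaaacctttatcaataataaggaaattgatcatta
The Hoxb8 window holds 3 matches, none of which overlap, and the other 3 windows hold none. Of all 32851 such windows in the table, 9.81% hold at least 1 match. The table covers 22 members with 24 windows, of which 2 windows, those of Hoxb8 and Hoxd4, hold a match. CpG pairs number 35 in the Hoxa13 window and 31 in the Hoxd13 window, against 14 for Hoxb4, 12 for Hoxb8 and a median of 6 over all windows. Windows of other members higher in DC held from 2 (Hoxd11) to 28 (Hoxa5), so those shown do not stand for their regions in CpG number. A match is a run of letters only and says nothing about binding.

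Levels were compared between genes as RPKM, which divides CPM by the merged exon length in kilobases, and between libraries as CPM, the counts scaled to a common library size. The libraries held between 14886439 and 17693513 counts in DC.EC, 11915081 and 18530171 in DC.GC, 30839377 and 41075589 in Si8.EC, and 37439139 and 40533313 in Si8.GC, so low members are measured more precisely in Si8. Of these, between 6143 and 10210 counts a library fell on Hox members in DC and between 2164 and 3755 in Si8. Mitochondrially encoded genes had 0% of the counts in DC and between 3.19% and 8.36% in Si8. The DC and the Si8 libraries came in separate count tables, so region and the making of each table cannot be told apart. Leaving the mitochondrial genes out changed no call named here but that of Hoxb9 in the negative sorts and that of Hoxb7 for the difference of goblet effects. The summed CPM of 7 goblet markers had a median of 42337 in DC.GC against 451 in DC.EC, and 168312 in Si8.GC against 572 in Si8.EC. The 5 colonocyte markers had a median sum of 6083 CPM in DC.EC against 900.5 in Si8.EC, and the 6 ileal enterocyte markers 10343 in Si8.EC against 169 in DC.EC. In bulk RNA, fewer cells of a type and less RNA per cell cannot be told apart.

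At 1 CPM or more on average, 22 of the 39 members were present in at least 1 group. These were 15 in DC.EC, 15 in DC.GC, 7 in Si8.EC and 8 in Si8.GC. Hoxb9 was the 1 member at this level in all 4 groups. The summed Hox RPKM had a median of 206 in DC.EC and 191 in DC.GC, against 34.9 in Si8.EC and 38.8 in Si8.GC, and no DC library overlapped with a Si8 library. In DC.EC the order by RPKM was Hoxb13, Hoxa13, Hoxa7, Hoxd13 and Hoxa10, with 9.90 ± 0.421 for Hoxa7 and 9.38 ± 1.31 for Hoxd13 (SD, n = 4), whose libraries overlapped. In DC.GC it was Hoxb13, Hoxa13, Hoxb9, Hoxa7 and Hoxd13, with 11.04 ± 0.566 for Hoxa13 and 10.7 ± 0.964 for Hoxb9, which overlapped. In Si8.EC it was Hoxb6, Hoxb9, Hoxb7 and Hoxb5, and in Si8.GC Hoxb9, Hoxb6, Hoxb7 and Hoxb5. Hoxb6 and Hoxb9 overlapped in Si8.EC, whereas Hoxb9 stood above Hoxb6 in every Si8.GC library, at 14.4 ± 1.80 against 9.22 ± 2.28 RPKM.

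**Figure D1:**
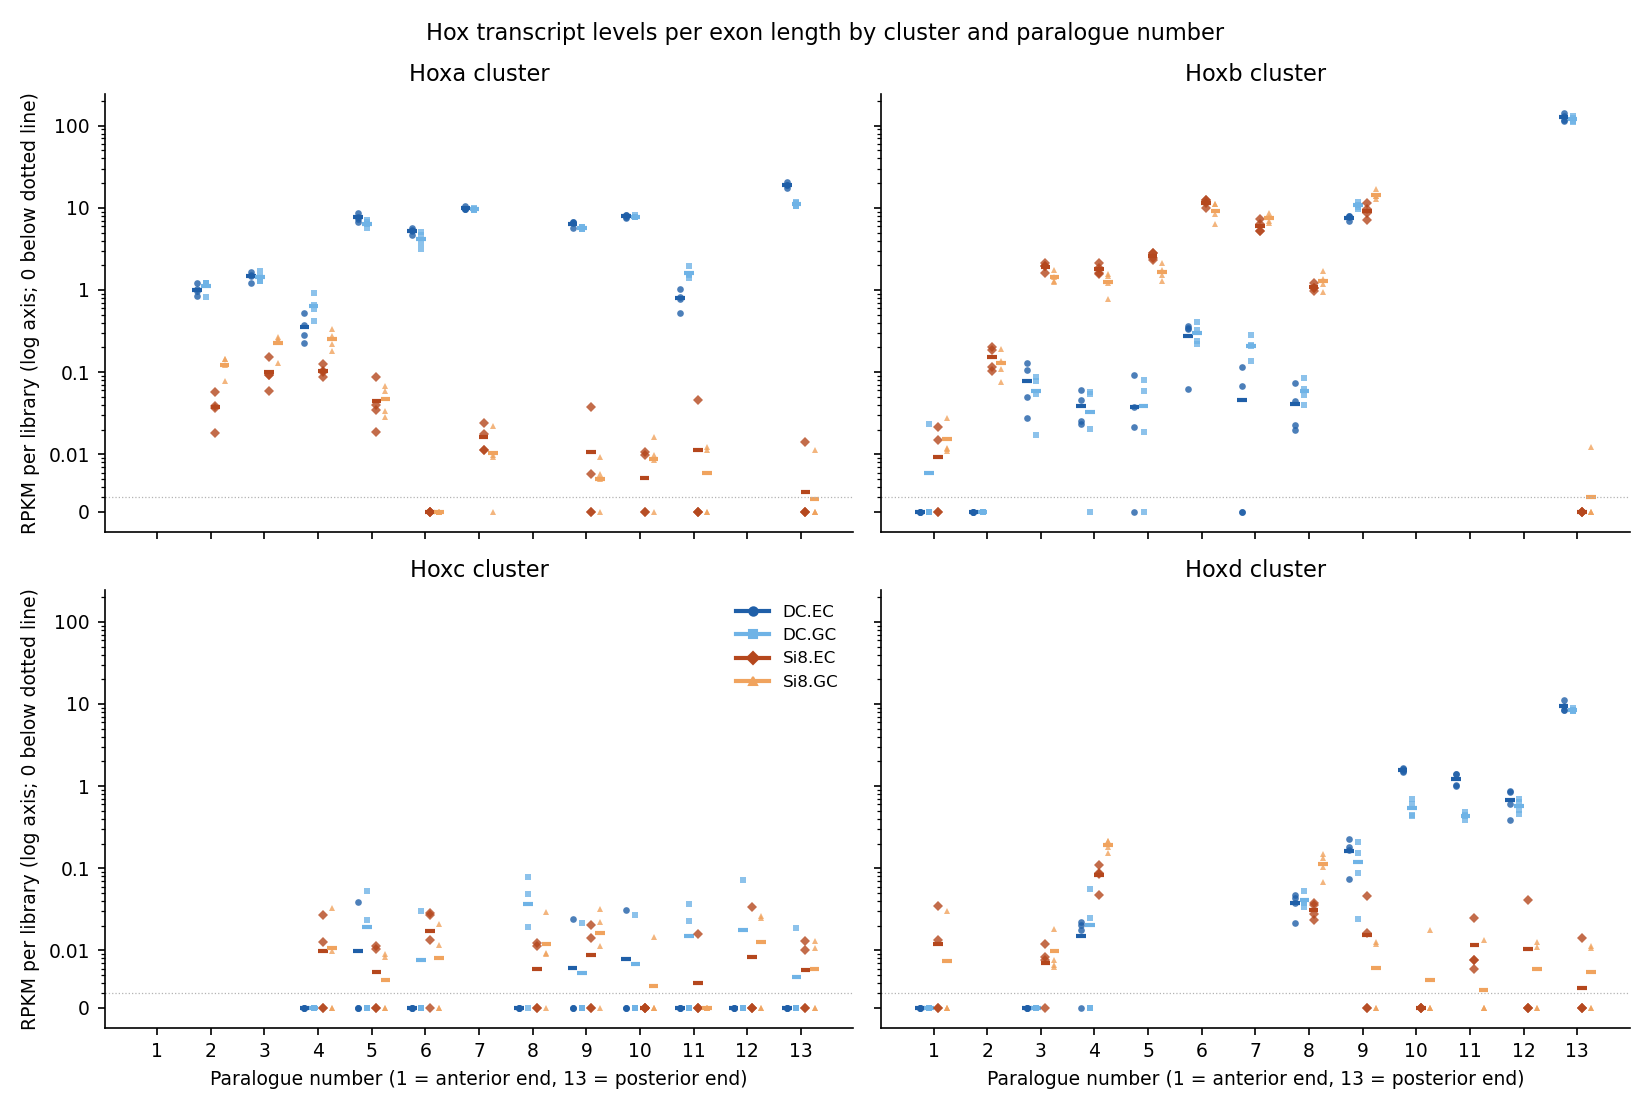
RPKM of the Hox genes described here in every library on a log axis, by cluster and paralogue number, with short bars for the mean of the 4 libraries of a group and values of 0 drawn below the dotted line. DC libraries lead from Hoxa2 to Hoxa13, at Hoxb13 and at Hoxd10 to Hoxd13, Si8 libraries lead from Hoxb3 to Hoxb8, and Hoxb9 is high in both.

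In both regions Hoxb held the largest share, and DC added Hoxa and Hoxd. The Hoxb cluster held a median of 98.3% of the summed Hox RPKM in Si8.EC and 96.9% in Si8.GC. In DC it held 64.3% in DC.EC and 68.5% in DC.GC, with Hoxb13 alone at a mean of 60.8% and 62.6%, and the Hoxa cluster held 29.6% and 26.2%. The Hoxd cluster held 6.34% in DC.EC and 5.46% in DC.GC, against 0.513% in Si8.EC and 0.950% in Si8.GC. By paralogue number, genes 9 to 13 held 86.8% and 87.3% in the DC sorts, against 26.3% in Si8.EC and 38.3% in Si8.GC. Genes 5 to 8 held 61.0% in Si8.EC and 52.6% in Si8.GC, against 11.5% in DC.EC and 10.9% in DC.GC. These shares are descriptions, without a test.

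**Figure D2:**
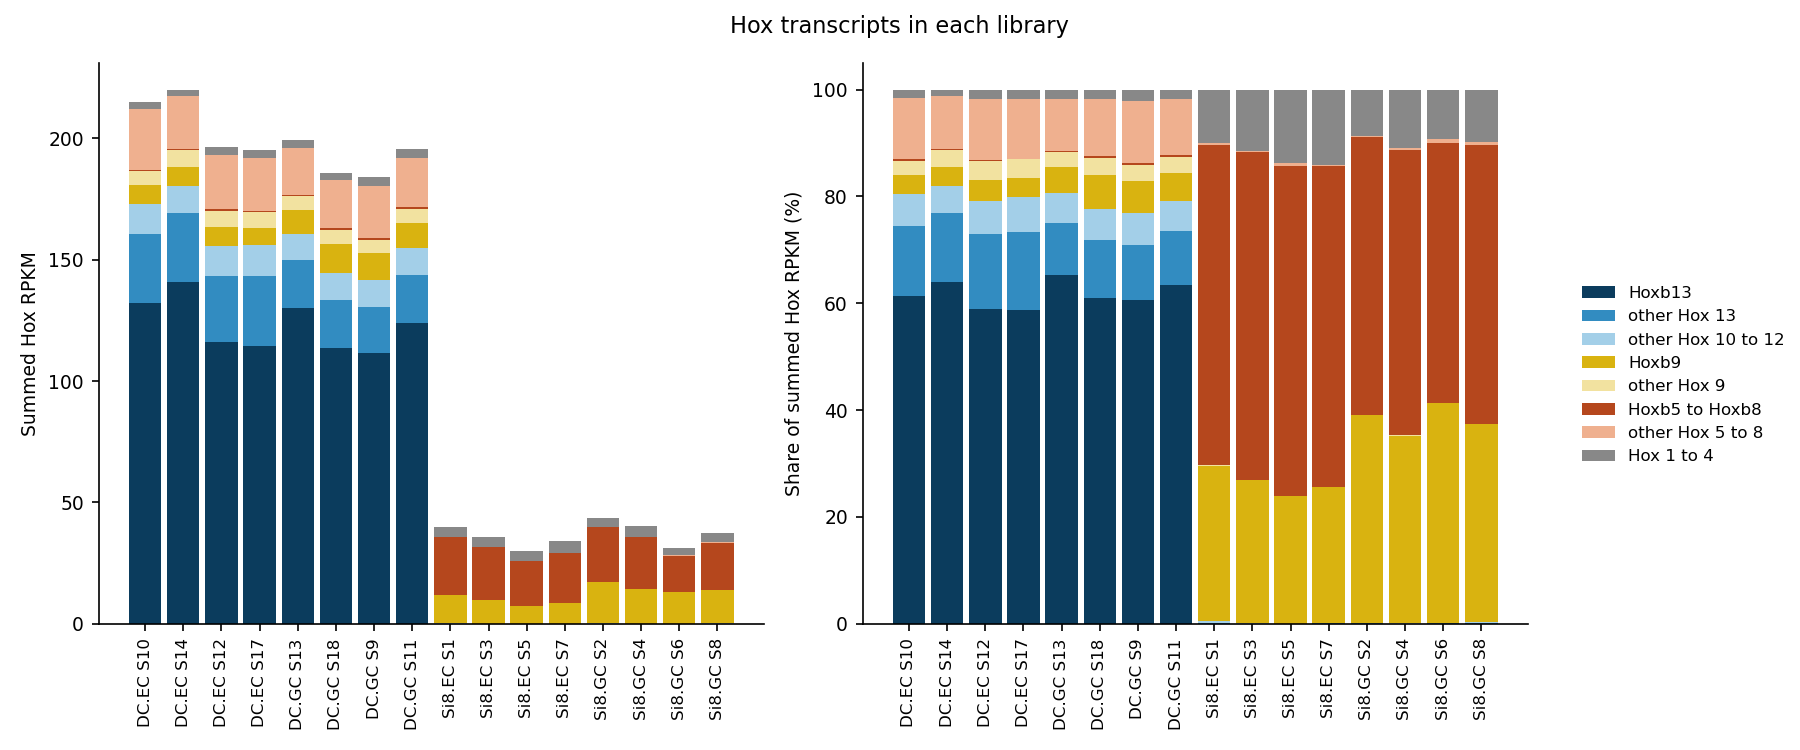
Summed Hox RPKM of each library (left) and its division among groups of members in percent (right), with 1 bar for each library. Hoxb13 fills between 58.7% and 65.3% of every DC bar, and Hoxb5 to Hoxb8 with Hoxb9 fill most of every Si8 bar.

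Between regions, 24 of the 39 members passed the filter on low counts and entered the edgeR fit. In the negative sorts 16 of these were higher in DC and 8 lower, where 66.9% of all 16001 genes tested were called, 33.3% higher and 33.6% lower. In goblet cells the same counts held, 16 higher and 8 lower, against 62.1% of all genes called. At 2-fold or more, 23 of 24 members were called in each sort, against 32.0% of all genes in the negative sorts and 25.8% in goblet cells. A member that passed the filter only through its high region had to differ, so these counts describe the members and support nothing further. Both sorts gave the same list in each direction. Among others, Hoxa2 to Hoxa13, Hoxb13 and Hoxd10 to Hoxd13 were higher in DC, and Hoxb3 to Hoxb9 and Hoxd4 were lower. The 4 DC and the 4 Si8 libraries did not overlap in 23 of the 24 tested members in the negative sorts and in all 24 in goblet cells, against 59.6% and 57.2% of all genes tested.

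Hoxb13, which marks the tail end of the trunk and the hindgut, led all members in DC with 126 ± 12.7 RPKM in DC.EC and 119.9 ± 8.76 in DC.GC (SD, n = 4). Its CPM was 291, 311, 256 and 253 in DC.EC libraries S10, S14, S12 and S17, the order kept below. In DC.GC libraries S13, S18, S9 and S11 it was 287, 250.3, 247 and 274. The 2 sorts overlapped. In Si8.EC libraries S1, S3, S5 and S7 it had 0 counts, and in Si8.GC libraries S2, S4, S6 and S8 it had 1 count in all, in S2. Against a floor of 3 counts over the group, Hoxb13 was at least 12091-fold higher in DC.EC than in Si8.EC. In goblet cells the ratio of counts per effective library was 38203 (95% counting interval 6856 to 1509021).

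Hoxa13, needed for the hindgut and the urogenital tract, was the next in DC.EC at 18.9 ± 1.27 RPKM. Its CPM was 46.6, 42.7, 47.1 and 50.4 in DC.EC and 26.2, 28.9, 26.0 and 28.1 in DC.GC. All 4 goblet libraries lay below all 4 others. In each Si8 sort it had 1 count over the 4 libraries, in S1 (0.0348 CPM) and in S8 (0.0279 CPM). The count ratio of DC to Si8 was 6076 (95% counting interval 1089.8 to 240078) in the negative sorts and 3909 (95% counting interval 701 to 154464) in goblet cells. Hoxd13, the limb and hindgut paralogue, stood at 23.8, 27.7, 20.9 and 20.8 CPM in DC.EC and 22.5, 20.9, 20.6 and 20.5 in DC.GC. These sorts overlapped. Hoxd13 had 1 count in Si8.EC and 2 in Si8.GC, in S1 (0.0348 CPM), S2 (0.0267 CPM) and S8 (0.0279 CPM), for count ratios of 3040.1 (95% counting interval 545 to 120152) and 1515 (95% counting interval 419 to 12523). The fourth gene of this number, Hoxc13, had 1 count in the 8 DC libraries.

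Among the other posterior genes of the Hoxa cluster, Hoxa10, a uterine and skeletal patterning gene, read 26.6, 24.5, 26.8 and 25.1 CPM in DC.EC and 25.1, 25.4, 26.6 and 24.996 in DC.GC. Its Si8 values were 0.0348, 0, 0 and 0.0324 CPM in Si8.EC and 0.0535, 0, 0.0319 and 0.0279 in Si8.GC. The DC sorts overlapped, and both lay far above Si8, with a log2 fold change of 9.61 ± 0.22 (SE from the F test, adjusted p = 1.04e-17) in goblet cells. That value rested on 2, 0, 1 and 1 counts in Si8.GC and went from 9.23 to 10.06 over the alternative settings. Hoxa9, best known for its part in blood progenitors, was at 32.0, 37.3, 36.8 and 37.6 CPM in DC.EC and 32.2, 31.1, 30.6 and 32.9 in DC.GC. In Si8 it was at 0.209, 0, 0.0325 and 0 in Si8.EC and 0, 0.0512, 0.0319 and 0.0279 in Si8.GC. The regions did not overlap, and the log2 fold change was 9.25 ± 0.29 in the negative sorts. With 6, 0, 1 and 0 counts in Si8.EC, it went from 8.54 to 11.26 over the alternative settings. Hoxa11, a limb and reproductive tract gene, was low even in DC, at 1.79, 1.19, 1.88 and 2.36 CPM in DC.EC and 3.56, 3.46, 3.23 and 4.49 in DC.GC. It had 3 counts in Si8.EC, all in S1 (0.104 CPM), and 2 in Si8.GC, in S4 (0.0256 CPM) and S8 (0.0279 CPM). Every goblet library of DC was above every DC.EC library. Of its exonic bases, 34.98% lie opposite the antisense gene Hoxa11os, and the strand setting of the counting is not given in the sources used here.

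The middle genes of the cluster, which pattern the trunk skeleton, were close to 0 in Si8 too. Hoxa7 read 30.3, 28.1, 27.8 and 27.7 CPM in DC.EC and 28.4, 26.8, 27.5 and 27.2 in DC.GC. In Si8 it read 0.0696, 0.0503, 0.0325 and 0.0324 in Si8.EC and 0.0267, 0, 0.0639 and 0.0279 in Si8.GC. The DC sorts overlapped, with S10 the highest of DC.EC, and 20.4% of the exonic bases lie opposite Hoxaas3. Hoxa6 read 4.94, 4.63, 4.60 and 4.11 CPM in DC.EC and 3.30, 2.79, 4.49 and 4.03 in DC.GC, and had 0 counts in all 8 Si8 libraries. This made it at least 199-fold higher in DC.EC and at least 178-fold higher in DC.GC. Hoxa5, which patterns the lung and gut mesenchyme as well as the axial skeleton, read 16.4, 12.8, 13.8 and 14.5 CPM in DC.EC and 10.7, 13.2, 12.5 and 11.8 in DC.GC. Its Si8 values were 0.0348, 0.0754, 0.162 and 0.0648 CPM in Si8.EC and 0.0535, 0.1281, 0.0639 and 0.112 in Si8.GC. The regions did not overlap, and DC was higher by 161-fold in the negative sorts and 126-fold in goblet cells.

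Towards the anterior end of Hoxa the regions lay closer together. Hoxa4, an anterior trunk gene, read 0.841, 0.357, 0.453 and 0.604 CPM in DC.EC and 1.47, 0.662, 1.04 and 0.926 in DC.GC, against 0.139, 0.201, 0.162 and 0.162 in Si8.EC and 0.347, 0.435, 0.287 and 0.530 in Si8.GC. With 3.32-fold in the negative sorts and 2.56-fold in goblet cells, it had the smallest region difference among Hoxa2 to Hoxa13. Hoxa3, a pharyngeal and neck patterning gene, read 8.88, 7.31, 9.84 and 9.24 CPM in DC.EC and 7.80, 7.65, 10.1 and 8.66 in DC.GC. In Si8 it read 0.557, 0.930, 0.552 and 0.356 in Si8.EC and 1.63, 1.49, 0.766 and 1.53 in Si8.GC, where library S6 was the lowest. Its fold was 14.3 in the negative sorts and 6.26 in goblet cells, and 25.4% of its exonic bases lie opposite other genes. Hoxa2, a hindbrain and neural crest gene, read 1.73, 1.49, 2.14 and 1.81 CPM in DC.EC and 1.47, 2.13, 2.19 and 2.13 in DC.GC. In Si8 it read 0.0696, 0.101, 0.0325 and 0.0648 in Si8.EC and 0.214, 0.256, 0.255 and 0.140 in Si8.GC. All 8 DC libraries lay above all 8 Si8 libraries.

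In the Hoxd cluster the DC signal lay mainly in paralogues 10 to 13. Hoxd12, a limb gene, read 2.15, 1.54, 0.971 and 2.24 CPM in DC.EC and 1.62, 1.76, 1.15 and 1.30 in DC.GC. It had 3 counts in Si8.EC, all in S1 (0.104 CPM), and 2 in Si8.GC, in S6 (0.0319 CPM) and S8 (0.0279 CPM). The DC sorts overlapped. Hoxd11, a limb and kidney patterning gene, read 5.89, 4.34, 4.27 and 5.86 CPM in DC.EC and 1.88, 1.62, 1.81 and 2.04 in DC.GC. In Si8 it read 0.104, 0.0251, 0.0325 and 0.0324 in Si8.EC and 0, 0, 0 and 0.0558 in Si8.GC. Goblet values in DC were all below those of the other sort. Hoxd10, which patterns the lumbar cord and hindlimb, read 2.79, 2.73, 3.04 and 2.90 CPM in DC.EC and 1.10, 0.809, 1.26 and 0.787 in DC.GC, with 0 counts in Si8.EC and 1 count in Si8.GC, in S6 (0.0319 CPM). It was at least 124-fold higher in DC.EC than in Si8.EC. Below it, Hoxd9 and Hoxd8 were not tested: Hoxd9 had 23 and 17 counts in the DC sorts and 4 and 2 in the Si8 sorts. Hoxd8 had 7, 8, 11 and 44 counts in DC.EC, DC.GC, Si8.EC and Si8.GC. Hoxd4 went the other way, at 0.0444 and 0.0594 CPM in the DC sorts against 0.244 and 0.566 in the Si8 sorts. Its log2 fold change was -3.24 ± 0.55 in goblet cells (adjusted p = 4.47e-05), on 0, 1, 3 and 0 counts in DC.GC. With any 1 of the 8 Si8 libraries left out, it did not pass the low-count filter. It shares same-strand exons with Hoxd3, which had 0 counts in DC and 4 and 6 in the Si8 sorts, so reads of the pair may be divided between them.

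The anterior and middle Hoxb genes carried the small intestinal signal. Hoxb6, a trunk patterning gene, led in Si8.EC at 11.5 ± 1.26 RPKM. Its CPM was 24.6, 24.4, 19.3 and 22.3 in Si8.EC and 21.7, 21.6, 12.5 and 16.6 in Si8.GC, against 0.683, 0.654, 0.712 and 0.121 in DC.EC and 0.471, 0.809, 0.438 and 0.648 in DC.GC. Every Si8 library was above every DC library, by 41.2-fold in the negative sorts and 31.0-fold in goblet cells. Hoxb7, a trunk patterning gene, read 11.1, 9.78, 8.06 and 7.97 CPM in Si8.EC and 13.5, 10.8, 10.2 and 12.1 in Si8.GC. In DC it read 0.105, 0.178, 0 and 0 in DC.EC and 0.209, 0.441, 0.328 and 0.324 in DC.GC. Its region difference of -6.88 ± 0.33 on the log2 scale in the negative sorts was the most negative of the 24 tested members. Resting on 2, 3, 0 and 0 counts in DC.EC, it went from -7.72 to -6.50 over the alternative settings. Hoxb8, known from blood and nervous system studies, read 3.24, 2.56, 2.79 and 2.82 CPM in Si8.EC and 3.13, 3.61, 2.49 and 4.44 in Si8.GC. In DC it read 0.0526, 0.119, 0.194 and 0.0604 in DC.EC and 0.105, 0.221, 0.164 and 0.139 in DC.GC. Regions did not overlap.

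Hoxb5, which has a known part in the enteric nervous system, read 7.93, 6.39, 6.86 and 7.81 CPM in Si8.EC and 4.84, 5.89, 3.58 and 4.27 in Si8.GC. Its DC values were 0.105, 0.0594, 0.259 and 0 CPM in DC.EC and 0.0523, 0.221, 0.164 and 0 in DC.GC. The fold was 67.0 in the negative sorts and 45.7 in goblet cells, and no Si8.GC library reached the lowest Si8.EC library. Hoxb4, a stem cell factor in blood, read 4.77, 3.997, 4.16 and 5.54 CPM in Si8.EC and 3.80, 4.02, 1.98 and 3.10 in Si8.GC, with S6 the lowest of its group. In DC it read 0.158, 0.119, 0.0648 and 0.0604 in DC.EC and 0.0523, 0.147, 0 and 0.139 in DC.GC. Hoxb3, a hindbrain and pharyngeal gene, read 6.86, 8.32, 8.42 and 9.07 CPM in Si8.EC and 6.07, 7.45, 5.33 and 5.44 in Si8.GC, against 0.210, 0.119, 0.453 and 0.544 in DC.EC and 0.366, 0.0735, 0.328 and 0.231 in DC.GC. For Hoxb3, 52.9% of the exonic bases lie opposite Hoxb3os, which had at most 40 counts in a group. Hoxb2, too low to be tested, had 0 counts in all 8 DC libraries and 67 and 64 counts in Si8.EC and Si8.GC, at least 11.6-fold and 10.8-fold higher in Si8. Hoxb1 had between 0 and 5 counts in a group.

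Markers of other cells moved with the region as well. The 10 lymphocyte and myeloid markers summed to between 204 and 299 CPM in Si8.EC, 12.3 and 40.8 in Si8.GC, 9.98 and 13.1 in DC.EC, and 1.76 and 2.65 in DC.GC, where Cd3g and Gzma were at 0. The 6 glial and neuronal markers summed to between 8.91 and 18.1 CPM in the Si8 libraries and between 2.18 and 4.21 in the DC libraries, with Sox10 at 0 in DC.EC and Si8.GC. The part of these cells in the region differences was not tested.

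Hoxb9 lies between the DC genes and the Si8 genes of its cluster, with its last base 79.1 kb from that of Hoxb13, where Hoxb8 ends at 87.9 kb. It read 19.8, 20.2, 20.3 and 17.9 CPM in DC.EC, 24.7, 30.6, 28.2 and 26.5 in DC.GC, 29.8, 24.8, 18.4 and 22.3 in Si8.EC and 43.8, 36.3, 33.0 and 35.6 in Si8.GC. The order of the means was DC.EC, Si8.EC, DC.GC and Si8.GC, from 19.6 to 37.2 CPM. DC.EC and Si8.EC overlapped, and the difference of -0.28 ± 0.12 on the log2 scale (adjusted p = 0.0492) was lost in 19 of 28 alternative settings. Without Si8.EC S1 it was -0.15 (adjusted p = 0.265). In goblet cells Hoxb9 was 1.35-fold lower in DC (log2 -0.44 ± 0.12, adjusted p = 0.00405), with no overlap. Its next neighbour Hoxb8 was far lower in DC, at 0.0404 ± 0.0249 RPKM in DC.EC where Hoxb9 was at 7.60 ± 0.429.

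The Hoxc cluster was near silent in every group. Its 9 genes had 66 counts in all 16 libraries together, and none was tested. The remaining untested members were Hoxb1, Hoxb2, Hoxd1, Hoxd3, Hoxd8 and Hoxd9, and the 15 untested members had between 3 and 131 counts over all libraries. Over a group, 3 counts correspond to 0.0442 CPM in DC.EC, 0.0413 in DC.GC, 0.0230 in Si8.EC and 0.0209 in Si8.GC, the floor under which a level was not detectable at this depth. Such floors and the intervals above cover counting error only.

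**Figure D3:**
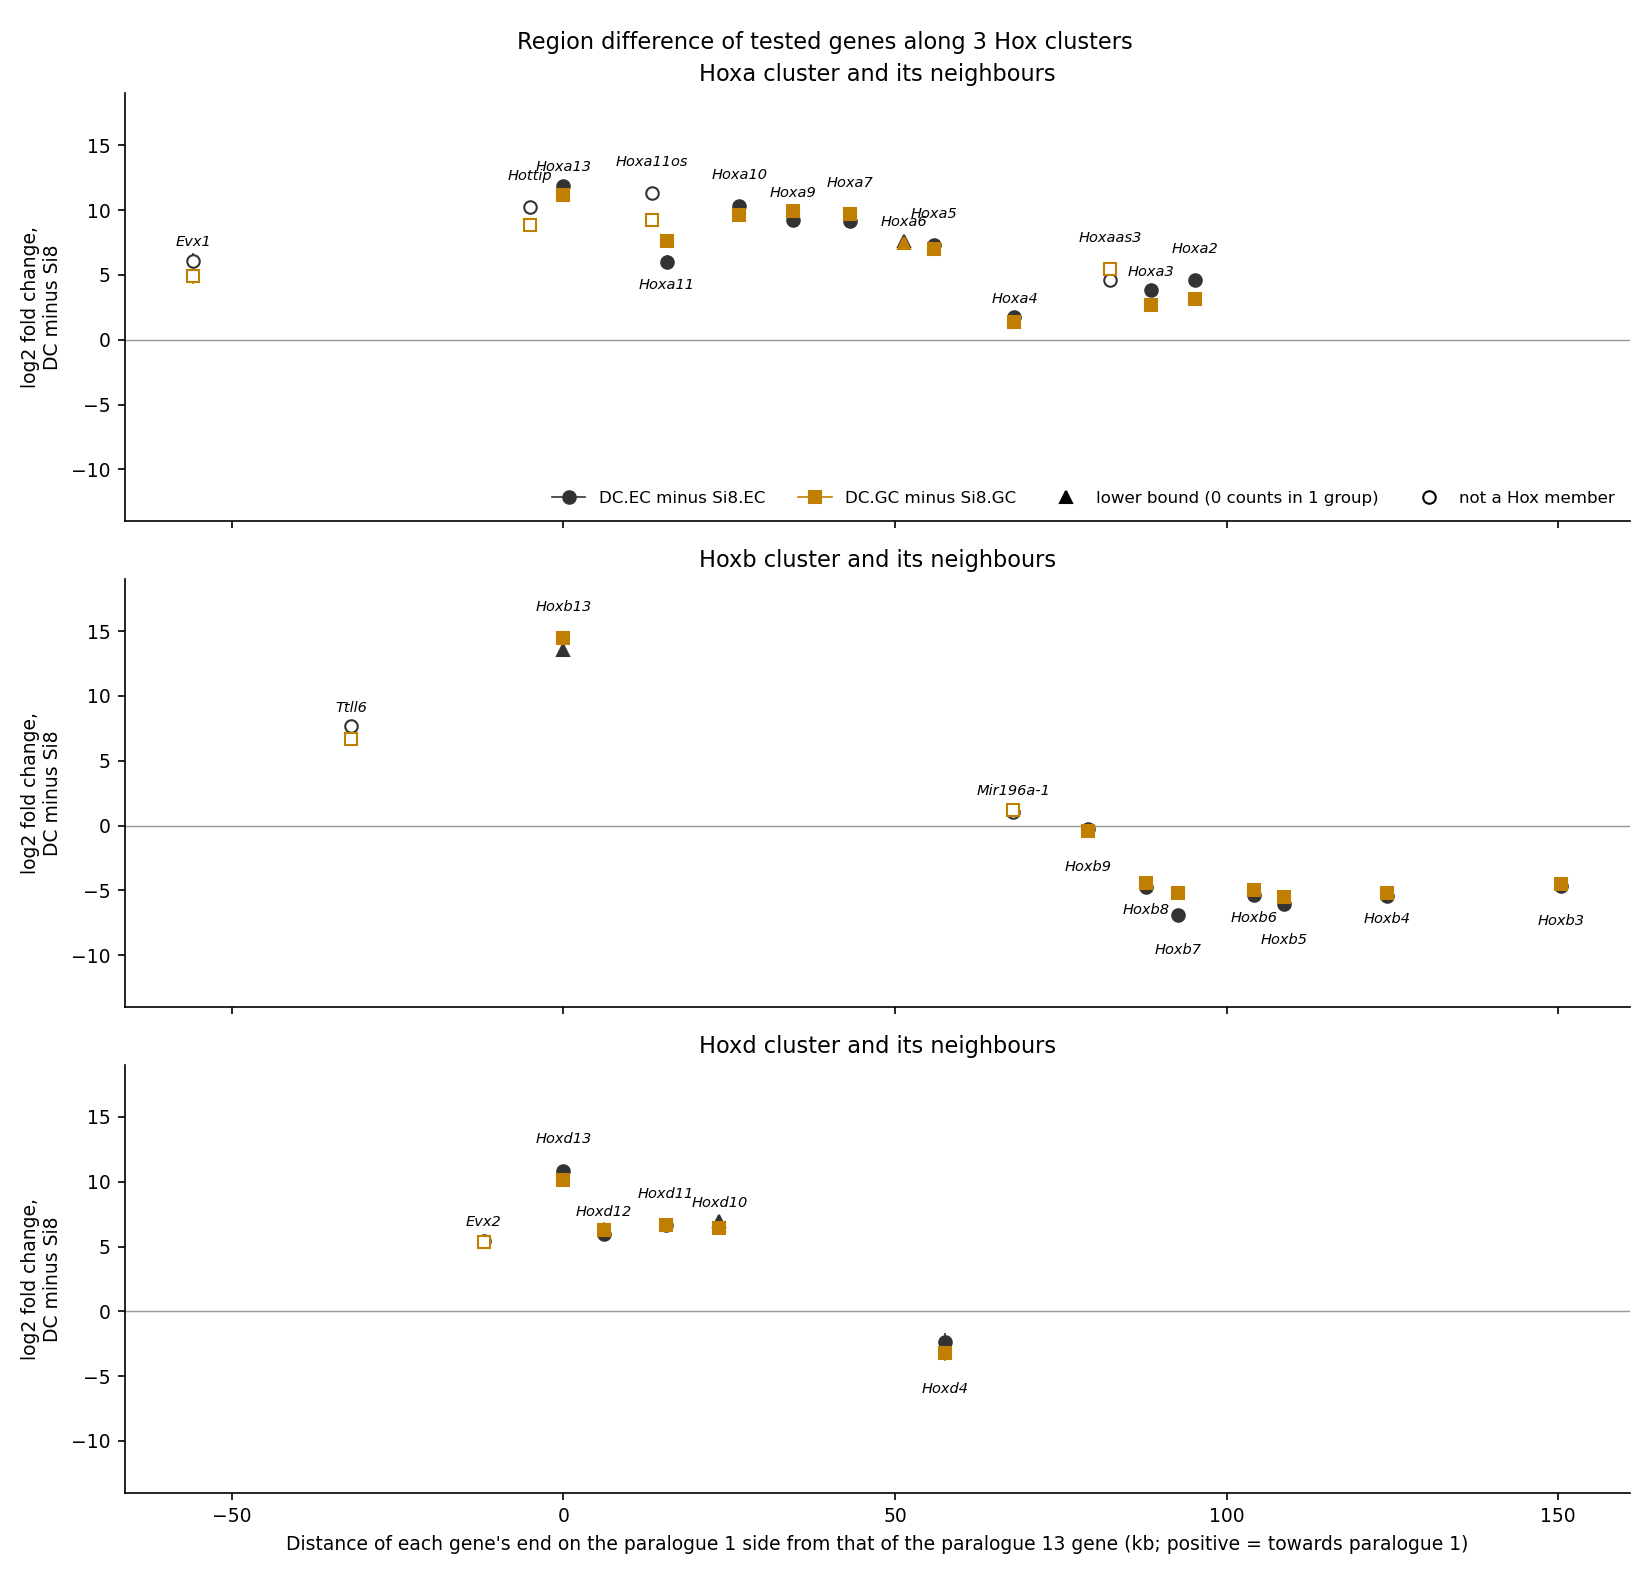
Log2 fold change between DC and Si8 of tested genes of 3 clusters and their neighbours against distance from the paralogue 13 gene in kb. Bars are the SE from the F test. Triangles are lower bounds against a group with 0 counts, and open symbols are not Hox members. Hoxa stays above 0 from Hoxa13 to Hoxa2, whereas Hoxb turns from above 0 at Hoxb13 to below 0 from Hoxb9 onward and Hoxd between Hoxd10 and Hoxd4.

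The tested noncoding genes of the clusters were higher in DC, and coding neighbours were called in shares near those of all genes. Of 21 noncoding genes of the clusters listed, 17 were in the tables and 4 were tested. All 4, Hottip, Hoxa11os, Hoxaas3 and Mir196a-1, were higher in DC in both sorts, with a median log2 fold change of 7.45 and 7.19. Hottip and Hoxa11os passed the low-count filter only through DC and had to differ. The count of 4 therefore describes the tested genes and supports nothing further about the noncoding genes. Hottip, an RNA at the tip of Hoxa next to Hoxa13, read 16.03, 14.1, 15.7 and 15.04 CPM in DC.EC and 5.599, 6.76, 4.60 and 5.42 in DC.GC, with 1 count in each Si8 sort. Hoxa11os read 32.8, 29.4, 32.8 and 35.8 CPM in DC.EC and 24.3, 23.2, 24.7 and 25.2 in DC.GC, with 1 count in Si8.EC and 5 in Si8.GC. No DC library of either gene overlapped with a Si8 library. Of the 21 coding neighbours listed, 18 were in the tables and 17 were tested. In DC, 8 rose and 2 fell (Skap1 and Snx11) in the negative sorts, and 8 rose and 3 fell (Skap1, Snx10 and Atf7) in goblet cells, with medians of 0.17 and 0.02. These are 10 and 11 of 17 called, against 66.9% and 62.1% of all genes. Evx1 and Evx2, homeobox genes beyond Hoxa13 and Hoxd13, averaged 1.37 and 1.57 CPM in DC.EC against 0.0174 and 0.0318 in Si8.EC. Ttll6, a tubulin glutamylase gene beyond Hoxb13, read 49.2, 46.2, 49.3 and 44.5 CPM in DC.EC and 27.99, 27.3, 26.0 and 26.2 in DC.GC, against 0.278, 0.352, 0.0650 and 0.194 in Si8.EC and 0.374, 0.307, 0.224 and 0.140 in Si8.GC. It was 202-fold higher in DC in the negative sorts. At the other end of Hoxb, Skap1, a T cell adaptor gene, averaged 0.0996 CPM in DC.EC and 3.33 in Si8.EC. It went with the immune marker sums above, and their part in it was not tested.

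The microRNA gene Mir196a-1 lies between Hoxb13 and Hoxb9, and Mir10a lies next to Hoxb4. Their mature forms are shown because the miR-196 family is known to target Hoxb8, with the seed, bases 2 to 8, in capitals (RefSeq, GRCm38.p6).
miR-196a-5p: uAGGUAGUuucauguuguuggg
miR-196b-5p: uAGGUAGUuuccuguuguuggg
miR-10a-5p: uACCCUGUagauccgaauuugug
miR-10b-5p: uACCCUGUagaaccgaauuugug
The miR-196 pair shares 1 seed and the miR-10 pair another. The Mir196a-1 entry read 3.78, 2.85, 3.17 and 2.78 CPM in DC.EC and 3.51, 2.21, 3.72 and 3.01 in DC.GC, against 1.496, 1.06, 1.69 and 1.81 in Si8.EC and 1.604, 1.23, 1.21 and 1.34 in Si8.GC. It was higher in DC by 1.07 ± 0.20 on the log2 scale in the negative sorts and 1.21 ± 0.20 in goblet cells, with adjusted p = 1.05e-04 and 3.09e-05. Mir10a was not tested, with 0, 1, 24 and 25 counts in DC.EC, DC.GC, Si8.EC and Si8.GC. Total RNA libraries count the surrounding transcript, so these values are not levels of the mature microRNAs.

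Within the distal colon, goblet cells and the other sort differed in 7 of the 24 tested members, 4 higher and 3 lower in goblet cells, where 55.7% of all genes tested were called, 27.8% higher and 27.9% lower. Members with few counts in DC passed the filter through Si8, so these shares are not alike. With only the 2 DC groups fitted, 17 members passed the filter and 8 were called. The members not called in the main fit include Hoxb13, at -0.07 ± 0.09 on the log2 scale. Hoxa13 fell by 0.78 ± 0.10 on the log2 scale in goblet cells (adjusted p = 2.81e-06), a 1.71-fold difference. Hoxd10 fell by 1.53 ± 0.24 and Hoxd11 by 1.46 ± 0.23, with adjusted p = 4.24e-05 and 1.83e-05. For these 3 genes no goblet library overlapped with the other sort. The neighbouring Hoxd12 and Hoxd13 were at -0.27 ± 0.33 and -0.14 ± 0.12, neither called. Higher in goblet cells were Hoxa11 at 1.04 ± 0.28 (adjusted p = 0.00347), Hoxb9 at 0.49 ± 0.13 (adjusted p = 0.00249), Hoxb7 at 2.04 ± 0.61 on 23 against 5 counts (adjusted p = 0.00769), and Hoxa4 at 0.86 ± 0.31 (adjusted p = 0.0231). Hoxa4 lost its call in 5 of 26 alternative settings, among them DESeq2 (adjusted p = 0.0616) and leaving out DC.GC S13 (adjusted p = 0.114).

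Of the noncoding genes of the Hoxa cluster, 3 differed between the DC sorts. Hottip fell by 1.45 ± 0.15 and Hoxa11os by 0.42 ± 0.09 on the log2 scale, with adjusted p = 1.07e-07 and 7.13e-04. Hoxaas3, which overlaps Hoxa7 and Hoxa3 on the opposite strand, read 6.73, 6.30, 6.15 and 6.65 CPM in DC.EC and 27.5, 27.1, 23.0 and 26.2 in DC.GC. It was higher in goblet cells by 2.00 ± 0.12 (adjusted p = 2.95e-11), whereas Hoxa7 differed by -0.05 ± 0.09. The 12 mesenchymal and endothelial markers summed to between 19.4 and 33.5 CPM in DC.EC and between 7.499 and 12.5 in DC.GC, none at 0, and the 7 enteroendocrine markers to a median of 516 against 76.7. Both sums were lower in goblet cells, as were Hoxa13, Hoxd10 and Hoxd11, and their part in those differences was not tested.

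**Figure D4:**
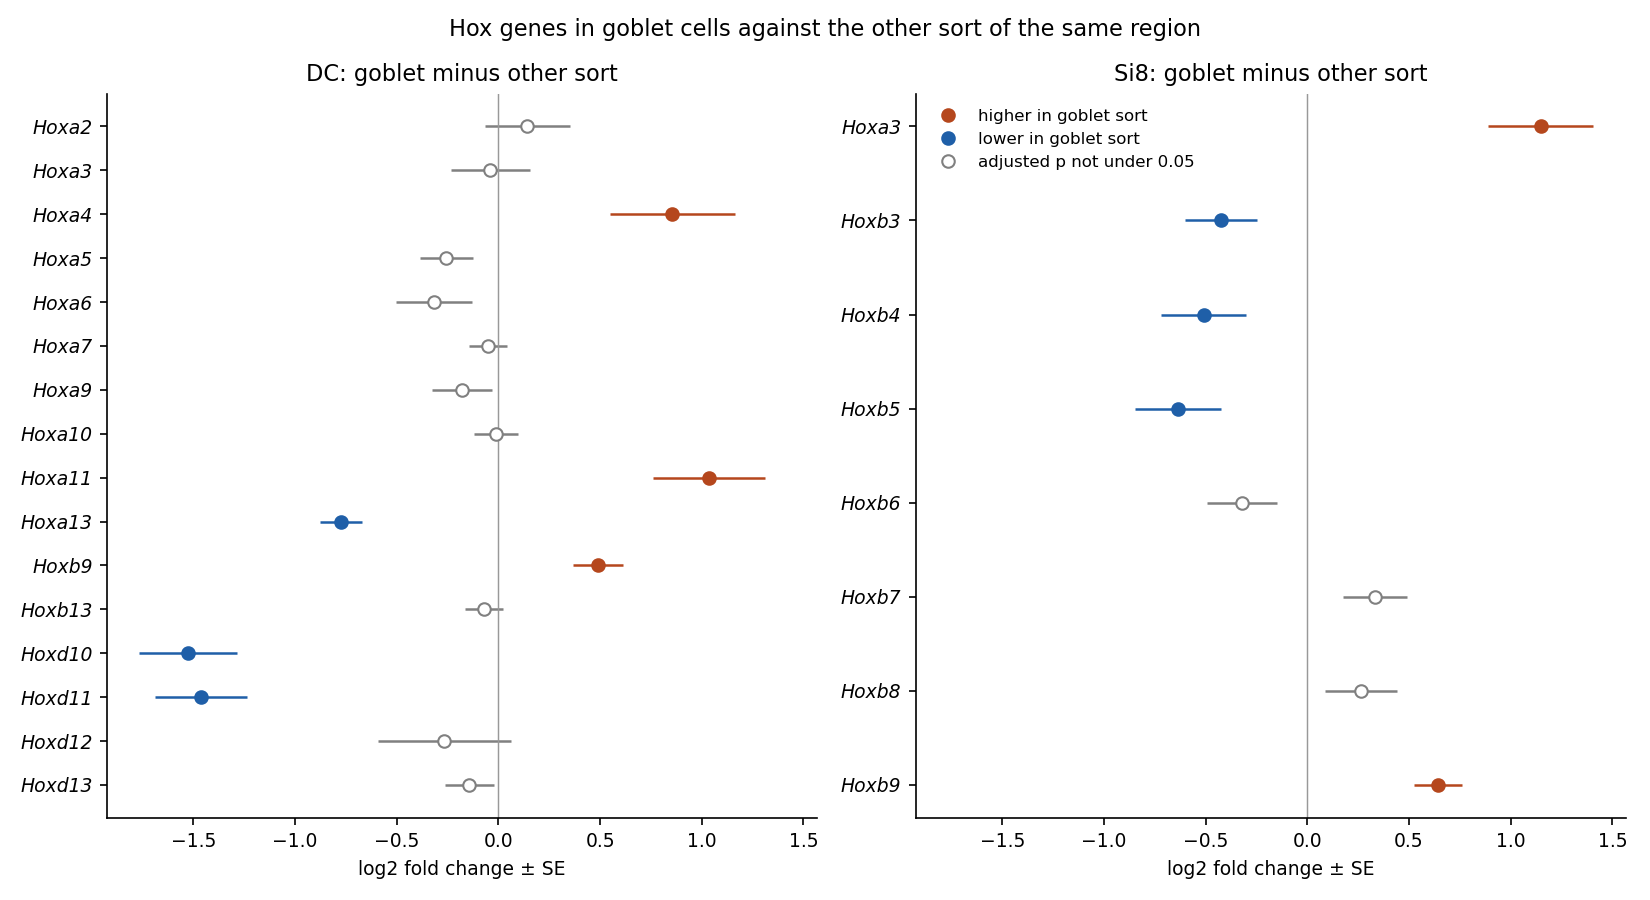
Log2 fold change ± SE of goblet cells against the other sort, in DC (left) and Si8 (right), for tested members at 1 CPM or more in a sort of that region; filled symbols have an adjusted p under 0.05. Hoxd10, Hoxd11 and Hoxa13 lie to the left in DC, and in Si8 the Hoxb genes run from the left at Hoxb3 to Hoxb5 to the right at Hoxb9.

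In Si8, 8 of the 24 tested members differed between the sorts, 5 higher and 3 lower in goblet cells, against 64.9% of all genes, 33.1% higher and 31.8% lower. Members with few counts in Si8 passed the filter through DC, so these shares are not alike. With only the 2 Si8 groups fitted, 10 members passed the filter and 5 were called. Hoxb3, Hoxb4 and Hoxb5 fell by 0.43 ± 0.18, 0.51 ± 0.21 and 0.64 ± 0.21 on the log2 scale in goblet cells, with adjusted p = 0.0405, 0.0384 and 0.0123. Hoxb6, Hoxb7 and Hoxb8 were not called, at -0.32 ± 0.17, 0.33 ± 0.16 and 0.26 ± 0.18. Hoxb9 was higher in all 4 goblet libraries than in any other Si8 library, at 0.64 ± 0.12 (adjusted p = 1.14e-04). The calls for Hoxb3 and Hoxb4 depend on single libraries: without Si8.GC S6 the value was -0.37 for Hoxb3 (adjusted p = 0.0983) and -0.34 for Hoxb4 (adjusted p = 0.1297). Both calls were also lost without Si8.EC S7 (adjusted p = 0.102 and 0.120), Si8.GC S8 (0.108 and 0.0805) or DC.EC S12 (0.0550 and 0.0518). Hoxb3 alone lost its call without Si8.EC S3 or S5, Si8.GC S2 or DC.GC S11, with a highest adjusted p of 0.0809, and Hoxb4 alone without Si8.EC S1 (adjusted p = 0.0742). Hoxb5 kept its call whichever single library was left out, and with S6 and S8 left out together, the goblet libraries with the largest Muc2 share, it was at -0.43 (adjusted p = 0.145). The immune sums were lower in the Si8 goblet sort as well, and the mesenchymal and endothelial sum was between 6.28 and 8.94 CPM in Si8.GC against 12.998 and 17.3 in Si8.EC. In the other direction, the 6 Paneth cell markers summed to between 12399.6 and 32973 CPM in Si8.GC and between 672.5 and 1804 in Si8.EC. The part of these cells in the Si8 goblet differences was not tested.

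Members with low levels in Si8 were the others called. Hoxa3, Hoxa2, Hoxa4 and Hoxd4 were higher in Si8 goblet cells by 1.15 ± 0.26, 1.58 ± 0.40, 1.23 ± 0.35 and 1.19 ± 0.35 on the log2 scale, with adjusted p = 7.44e-04, 0.00234, 0.00458 and 0.00613. Of these, Hoxa3 alone reached 1 CPM in a Si8 sort, and its libraries overlapped. Hoxa2 rested on 31 against 9 counts. With the Si8 libraries thinned to the median total of the DC libraries, 15684394 counts, Hoxa2, Hoxa4 and Hoxb3 were no longer called (adjusted p = 0.305, 0.139 and 0.116), and Hoxd4 did not pass the low-count filter.

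The goblet effect itself was compared between regions. It differed for 3 of 24 members, against 32.1% of all genes, 15.6% with a higher and 16.5% with a lower effect in DC. For members with few counts in a region the difference was poorly measured, so these shares are not alike. For Hoxa3 the effect in DC minus that in Si8 was -1.19 ± 0.32 on the log2 scale (adjusted p = 0.00795), and for Hoxa2 it was -1.44 ± 0.45 (adjusted p = 0.0208), a call lost in 5 of 26 alternative settings. For Hoxb7 it was 1.71 ± 0.63 (adjusted p = 0.0461), a call lost in 14 of 26 alternative settings, where its adjusted p went up to 0.131. For Hoxb9 it was -0.15 ± 0.17 and was not called (adjusted p = 0.539). Hoxb9 and Hoxa4 were called higher in goblet cells of both regions.

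Transcripts of proteins that work with Hox factors were detected in all groups. Of 9 cofactors of the TALE class, which bind DNA beside Hox proteins, 7 were tested, of which 4 rose (Pbx3, Meis3 and Pknox2 among them) and 1 fell (Pbx4) in DC in the negative sorts, and 1 rose (Pknox2) in goblet cells. Of all genes, 66.9% were called in the negative sorts and 62.1% in goblet cells. The median log2 fold change of the 7 was 0.21 and 0.03, against 0.00 and -0.02 over all genes. Meis3 and Pbx3 were higher in DC.EC by 1.10 ± 0.16 and 0.66 ± 0.13, and Meis3 was at -0.33 ± 0.16 in goblet cells, not called. Pbx4 was lower in DC.EC at -2.94 ± 0.37, from 5.36 CPM in Si8.EC to 0.689.

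Among regulators, Cdx2 was lower in DC. Cdx1 averaged 161 ± 7.20 CPM in DC.EC, 157 ± 14.6 in DC.GC, 142 ± 15.8 in Si8.EC and 191 ± 15.9 in Si8.GC (SD, n = 4). It was called between regions in goblet cells alone, at -0.28 ± 0.09 (adjusted p = 0.0105). Cdx2 read 103, 79.0, 96.9 and 114 CPM in DC.EC and 60.2, 68.2, 61.0 and 60.8 in DC.GC, against 206, 201, 208 and 181 in Si8.EC and 175, 149.5, 147 and 128 in Si8.GC. No library overlapped across regions, and Cdx2 was 2.03-fold and 2.399-fold lower in DC. Of the 12 tested factors of this list, 4 rose and 7 fell in DC in the negative sorts, and 4 rose and 8 fell in goblet cells, with medians of -0.49 and -0.88. Of all genes, 33.3% rose and 33.6% fell in the negative sorts, and 30.6% rose and 31.5% fell in goblet cells. Among the largest were Gata5 and Gata4, small intestinal factors, at -8.23 ± 0.25 and -4.78 ± 0.69 in goblet cells, Foxa2 at 3.42 ± 0.17 in the negative sorts, and Hnf4g at -2.71 ± 0.09.

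**Figure D5:**
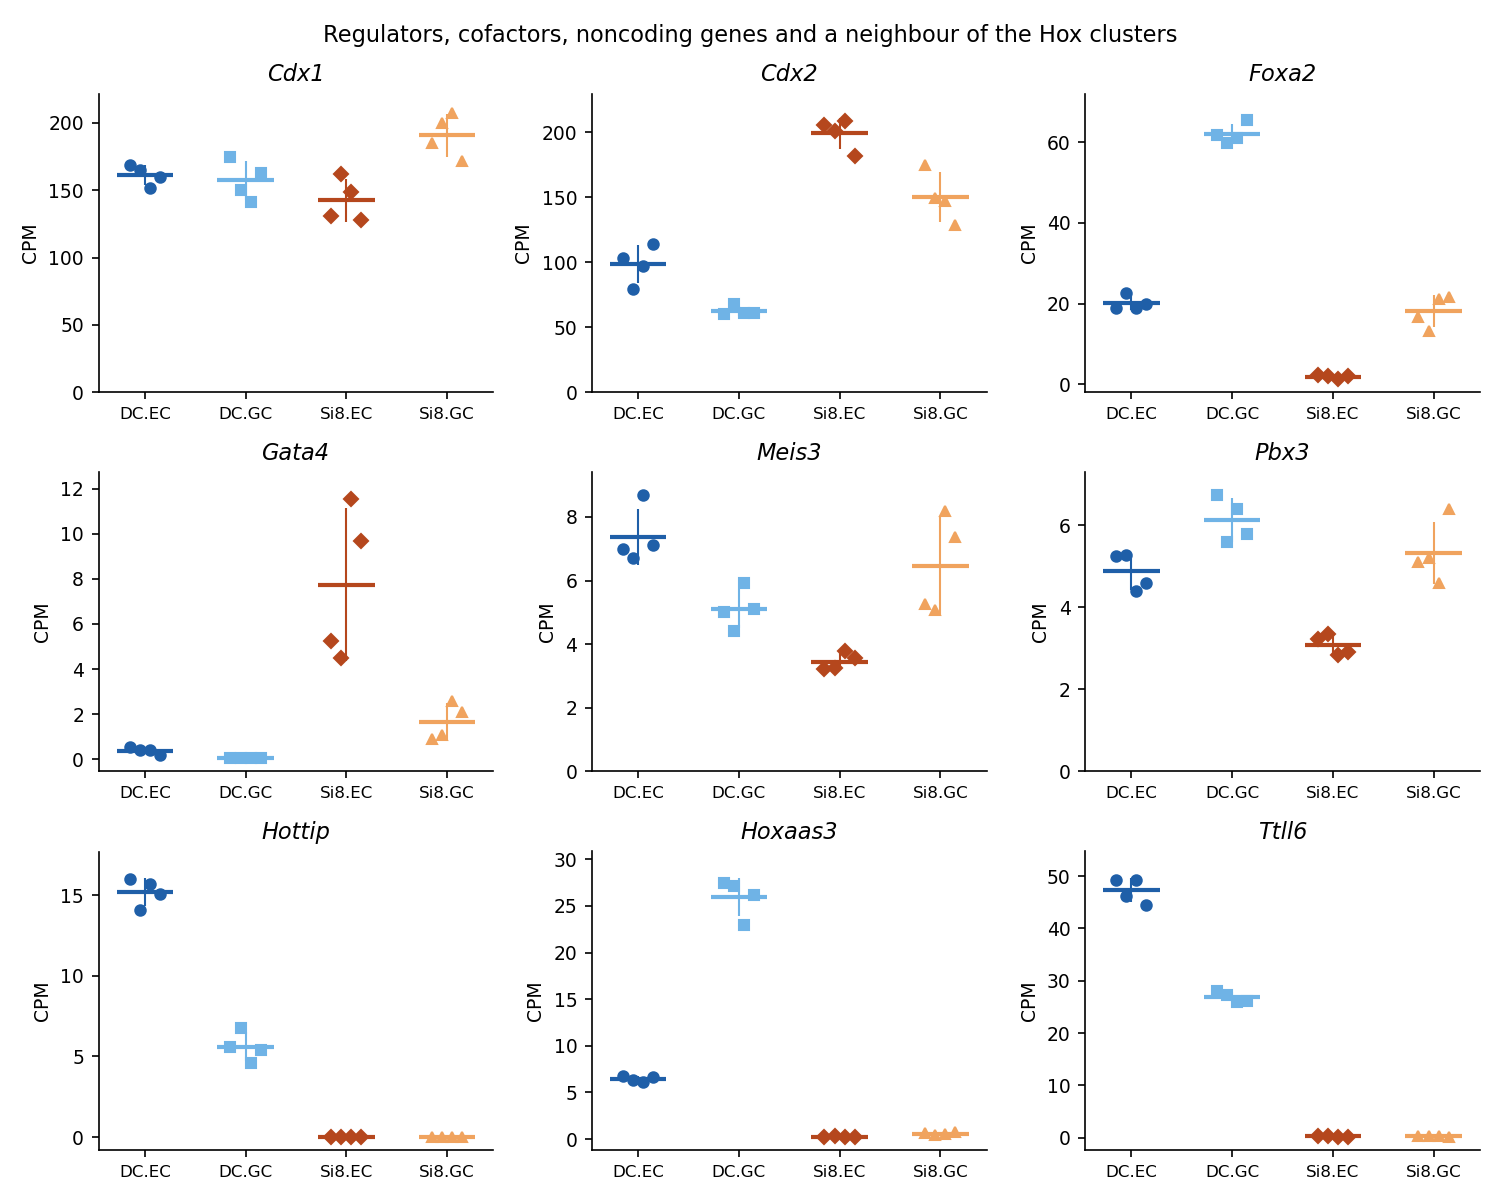
CPM of 9 genes in every library, with bars for the mean and vertical lines for the SD of the 4 libraries of a group. Hottip, Hoxaas3 and Ttll6 are high in DC, Foxa2 is highest in DC.GC and lowest in Si8.EC, Cdx2 and Gata4 are high in Si8, and Cdx1 overlaps between regions.

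Chromatin regulators of Hox clusters were called in both directions, in shares near those of all genes, 66.9% in the negative sorts and 62.1% in goblet cells. All 20 Polycomb genes were tested, of which 10 rose and 5 fell in DC in the negative sorts and 6 rose and 6 fell in goblet cells, with 15 and 12 called in all and medians of 0.17 and -0.14 on the log2 scale. Among the largest were Jarid2 at -2.03 ± 0.11 and Phc2 at -0.85 ± 0.08 in the negative sorts, and Mtf2 at 1.69 ± 0.06 in goblet cells. Of 12 Trithorax and demethylase genes, 1 rose (Dpy30) and 6 fell in the negative sorts, and 2 rose (Kdm6a and Uty) and 5 fell in goblet cells, with medians of -0.22 and -0.24 and with Kmt2d at -1.68 ± 0.15 and Kdm6b, a remover of the Polycomb mark, at -1.36 ± 0.23 in the negative sorts. In the retinoic acid pathway, which induces anterior Hox genes in the embryo, 8 of 17 genes were tested, with 2 higher and 3 lower in DC in each sort, beside the same all-gene shares, and medians of 0.08 and 0.01. Rara, Rxra and Aldh1a1 were lower in both sorts, Aldh1a3 was higher in both, Rdh10 was higher in the negative sorts and Rarg in goblet cells. Aldh1a3, a retinoic acid synthesis gene, was at 3.49 CPM in DC.EC against 0.103 in Si8.EC, and Aldh1a1 at 42.9 against 110.5.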

How the data were processed

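The authors deposited 2 tables of raw read counts per gene symbol, 1 for the 8 DC libraries and 1 for the 8 Si8 libraries. The submitters' processing notes name FastQC 0.11.2, STAR 2.4.0f, HTSeq 0.6.1p1, DESeq2 1.14 and the mm10 build, without saying how each was used. Per the labels' protocols, total RNA was depleted of ribosomal RNA, made into stranded TruSeq libraries and sequenced as paired ends. The strand setting of the counting is not given in the sources used here, and neither is how reads in overlapping genes were assigned, which limits the values of the members with antisense partners. The authors' table normalized by size factors was not used.

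The 2 count tables were joined by symbol, and 4 entries with repeated symbols were left out of 46882. Symbols were matched to GENCODE M21 (GRCm38), where 44027 of 46878 matched 1 gene. Groups came from the labels. The deposited counts entered edgeR 4.0.16 (R 4.3.3) with TMM scaling (the low-count filter by group with a minimum count of 10, robust quasi-likelihood F test, common coefficient of variation 0.128). The fit held all 16 libraries in 4 groups, with 5 contrasts, and p-values were adjusted by Benjamini-Hochberg over 16001 genes in each contrast. Called means an adjusted p under 0.05, and values after ± are the SE for log2 fold changes and the SD for levels. This SE is the absolute log2 fold change divided by the square root of F. Where a group had few counts, it need not cover the counting error. Where 1 group had 0 counts, the fold is a lower bound against 3 counts over the group, and with 1 to 3 counts it is a count ratio with an exact 95% interval. CPM used the TMM-scaled library, and RPKM divided it by merged exon length. The pipeline was tested on simulated counts.

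The members and the gene lists were chosen with earlier results of these data known. Members with a group mean of at least 1 CPM were given by library, and the counts cover all 39 members. A few genes are not reported here by name. Of each other list, up to 4 called genes with the largest region difference and at least 1 CPM were named, plus Cdx1 and Cdx2. Other list genes were named after their values were seen, because few genes of their list were called. Alternatives were RLE and upper-quartile factors, DESeq2 1.42.0, 3 other filters, 2-group fits, no mitochondrial genes, thinned Si8 libraries, no robust dispersions and leaving out each library. Leaving out the 10 most abundant genes of each group, or Si8.GC S6 and S8 together, was added after seeing the data.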

Additional observations from a re-analysis of the deposited data

Results flagged for a closer look

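Among the 45 combinations of a member and a group with a mean of at least 1 CPM, 4 had 1 library far from the other 3, where chance alone flags about 1 in 20. In DC.GC, Hoxa2 was at 1.47 CPM in S13 while the other libraries lay between 2.13 and 2.19. In Si8.GC, Hoxa3 was at 0.766 CPM in S6, and the nearest library was at 1.49. In DC.EC, Hoxa7 was at 30.3 CPM in S10 with the nearest library at 28.1, and Hoxa9 was at 32.0 CPM in the same library with the nearest at 36.8.

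For 3 members the goblet effect in DC differed from that in Si8 by edgeR's test of the difference itself. Hoxa2 differed by -1.44 ± 0.45 on the log2 scale (adjusted p = 0.0208), from effects of 0.14 in DC and 1.58 in Si8. Hoxa3 differed by -1.19 ± 0.32 (adjusted p = 0.00795), from -0.04 in DC and 1.15 in Si8. Hoxb7 differed by 1.71 ± 0.63 (adjusted p = 0.0461), from 2.04 in DC, on 23 against 5 counts, and 0.33 in Si8.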

How the results depend on the processing

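No call made with the main settings changed sign under any alternative. With the low-count filter ignoring the groups, 3 members entered the fit, and 2, 3, 1, 2 and 1 were called between regions in the negative sorts, between regions in goblet cells, for the goblet effect in DC, for that in Si8 and for the difference of goblet effects, where 24, 24, 7, 8 and 3 were called by the main filter: fewer members were tested. The 8 calls for the goblet effect in Si8 became 5 in a fit of only the 2 groups compared, 5 with the Si8 libraries thinned to DC depth and 5 without Si8.GC S6 and S8 together. In the 2-group fit Hoxa2 and Hoxa4 did not pass the filter and Hoxb4 lost its call. In the other 2 fits Hoxd4 did not pass the filter, 3 calls were lost and 1 was gained. They ranged from 5 (without Si8.EC S7 or without Si8.GC S6) to 8 when each library was left out. The 3 calls for the difference of goblet effects became 1 with the Si8 libraries thinned, and ranged from 1 (without Si8.GC S4) to 3 when each library was left out. Apart from members that left the fit, the cause of these changes was not tested.

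Of the single members, Hoxb9 between the negative sorts lost its call in 19 of 28 alternatives, Hoxb3 and Hoxb4 for the goblet effect in Si8 in 11 and 8 of 27, Hoxa4 in DC in 5 of 26, and Hoxb7 for the difference in 14 of 26. Calls were gained for Hoxa5 and Hoxa9 in DC with DESeq2 and with the 2-group fit, for Hoxa9 in Si8 with thinned libraries, for Hoxb7 in Si8 in 3 alternatives and for Hoxd11 in Si8 in 2. Depth limits the 17 members under 1 CPM in every group. No paired fit was made, because the labels do not tie goblet libraries to negative libraries of the same animal. A pairing, if there was one, was therefore not used in the goblet contrasts.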
